A study of Mus musculus with 13 samples.

Results

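RNA-seq libraries of Paneth cells were compared with libraries of intestinal stem cells from mice of 2 to 3 months, Paneth minus stem, over all genes. The comparison takes 7 of the 13 libraries of the study, chosen by their labelled age and cell type: 4 of Paneth cells and 3 of stem cells. All mice were labelled male and carried the Lgr5-eGFP-IRES-CreERT2 reporter on a C57Bl6/SV129 background, so Paneth and stem cells share the allele, in which green fluorescent protein and an inducible Cre are inserted at the Lgr5 gene. Crypts were taken from the proximal part of the small intestine for both cell types. The gate that separated the cells is not described in the labels, and no drug to induce Cre is named. The other 6 libraries are Paneth and stem cells, 3 each, of mice of 20 to 22 months with the same genotype. A Clontech SMARTer pico kit served for the Paneth libraries and standard Illumina protocols for the stem cell libraries, so cell type and library kit cannot be told apart in any difference given here. The labels do not state that libraries of a group came from separate mice, so p-values measure the spread between these libraries only.

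Paneth cells sit at the base of the crypt between the Lgr5-positive stem cells. They are long-lived secretory cells that store antimicrobial peptides such as lysozyme and the alpha-defensins in granules and release them into the crypt. They are also known as a source of niche signals: Wnt3, Egf and the Notch ligands Dll1 and Dll4. The stem cells next to them divide, carry the matching receptors, and give rise to both absorptive and secretory cells.

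Library totals lay between 4606144 and 8424383 reads in Paneth cells and between 8398966 and 19740104 in stem cells. The 3 loci with the largest share of young Paneth reads, Esp38, Lars2 and Gm20594, took 51.9% ± 9.99 (SD, n = 4) of the Paneth reads and 6.12% ± 3.63 (SD, n = 3) of the stem reads. The loci were picked by their share in these Paneth libraries, so a higher Paneth share was favoured in advance. The exact two-sided permutation p of the gap, 0.0286, the smallest that 35 splits allow, is therefore no support. Outside these loci the Paneth libraries held 1555058 to 4601068 reads and the stem libraries 7532974 to 18945406, so low genes were measured less precisely in Paneth cells. Over all genes tested, the first principal component held 64.32% of the variance and separated the cell types, while the second, with 16.14%, separated Paneth libraries 2 and 4 from each other. Paneth 4 stood apart by its markers, as described with the marker genes. All 7 libraries are labelled male, and 6 of them went against that label. In these 6, Xist, in reads scaled to equal library size (counts per 1000000, CPM), was at 294 to 1737, and the Y-linked Ddx3y at 0.583 to 2.93 CPM. Stem 1 stood apart from them, with Xist at 10.8 CPM and Ddx3y at 37.4 CPM. Results are given over all 7 libraries, and values without Paneth 4 and stem 1 were computed for every list.

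The labelled cell types were checked against Lyz1 and Defa24 for Paneth cells and Lgr5 and Olfm4 for stem cells. Values are CPM scaled by the trimmed mean of M-values (TMM), listed for Paneth libraries 1 to 4 and then stem libraries 1 to 3. Each log2 change is Paneth minus stem with its approximate standard error, and its p-value is from the quasi-likelihood test of edgeR, adjusted over 15736 genes by the Benjamini-Hochberg method. Lyz1 (Entrez 17110, chr10:117287795-117292868 on GRCm38), the gene of lysozyme, was at 24363, 15261, 11423 and 1787 CPM in Paneth cells and 378, 565 and 569 CPM in stem cells (log2 change 4.71 ± 0.85, adjusted p = 0.00207). Defa24, an alpha-defensin, was at 20602, 11094, 11242 and 1708 CPM in Paneth cells and 434, 523 and 411 CPM in stem cells (log2 change 4.61 ± 0.80, adjusted p = 0.00176). For both genes all Paneth libraries lay above all stem libraries, and Paneth 4 was the lowest Paneth library. Lgr5 (Entrez 14160, chr10:115450314-115587780), the R-spondin-binding receptor that marks crypt stem cells, was at 35.9, 35.4, 41 and 18.7 CPM in Paneth cells and 83.1, 99.3 and 87.3 CPM in stem cells (log2 change -1.46 ± 0.28, adjusted p = 0.00317). Olfm4, a secreted glycoprotein of stem cells, was at 828, 576, 924 and 200.03 CPM in Paneth cells and 2503, 2632 and 2882 CPM in stem cells (log2 change -2.08 ± 0.48, adjusted p = 0.00698). Both stem cell genes were lower in every Paneth library than in any stem library, but both were detected in all Paneth libraries. In bulk RNA, fewer cells of a type and less RNA per cell cannot be told apart.

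Among Paneth cell markers, 24 of 24 tested members were higher and 0 lower, with a median log2 change of 4.95. In all genes tested, 19.5% were higher and 17.2% lower at an adjusted p under 0.05, 36.7% in all, and the median log2 change was -0.0046. The counts of every gene list are to be read beside these shares. The smallest change of the 24 was 3.26, of Copz2, a coat protein of Golgi vesicles, and the largest 6.62, of Nupr1, a small stress-induced nuclear protein. Nupr1 was at 602, 670.3, 345 and 66.5 CPM in Paneth cells and 5.298, 3.9 and 3.67 CPM in stem cells (log2 change 6.62 ± 0.78, adjusted p = 0.000237). Mmp7, the protease that activates mouse alpha-defensins, was at 421, 242, 245 and 41.99 CPM in Paneth cells and 22.5, 18.2 and 19.7 CPM in stem cells (log2 change 3.56 ± 0.63, adjusted p = 0.00185). Itln1, the lectin intelectin, was at 12366, 9438, 7298 and 1477 CPM in Paneth cells and 215, 209 and 247 CPM in stem cells (log2 change 5.09 ± 0.75, adjusted p = 0.000737). In these genes the Paneth libraries did not overlap with the stem libraries, yet Paneth 4 lay well below the other Paneth libraries. Alpha-defensin genes resemble each other closely, so reads can be split among copies and single Defa values are uncertain.

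Summed over the 24 Paneth markers, the libraries held 113940, 71962, 63924 and 10836 CPM in Paneth cells and 2064, 2441 and 2259 CPM in stem cells. Paneth 4 thus had the lowest Paneth sum, and the stem mean was 3.46% of the Paneth mean. With 1 library left out, 23 to 24 higher and 0 lower were called. Among stem cell markers, 1 of 26 tested members was higher and 18 lower, with a median log2 change of -1.44. Their sum was 2699.5, 2554, 2909.7 and 994 CPM in Paneth cells and 6644, 6598 and 6883 CPM in stem cells. Gkn3, Ascl2 and Tnfrsf19 had log2 changes of -3.51 ± 0.40, -2.04 ± 0.34 and -2.33 ± 0.38 (adjusted p = 0.000203, 0.00137 and 0.00129). Ascl2 is the Wnt-driven transcription factor of stem cell identity and Tnfrsf19 a receptor known as Troy. The exception was Sox9, a transcription factor of crypt base cells that Paneth cells need, at 147, 175, 147 and 54.2 CPM in Paneth cells and 60.9, 41.8 and 38.6 CPM in stem cells (log2 change 1.47 ± 0.38, adjusted p = 0.0126): it was higher in Paneth cells, but Paneth 4 lay within the stem range. Without stem 2 or stem 3 Sox9 did not pass. The other 7 markers, including the Wnt target Axin2 (log2 change -0.33 ± 0.36, adjusted p = 0.511), did not pass.

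**Figure D1:**
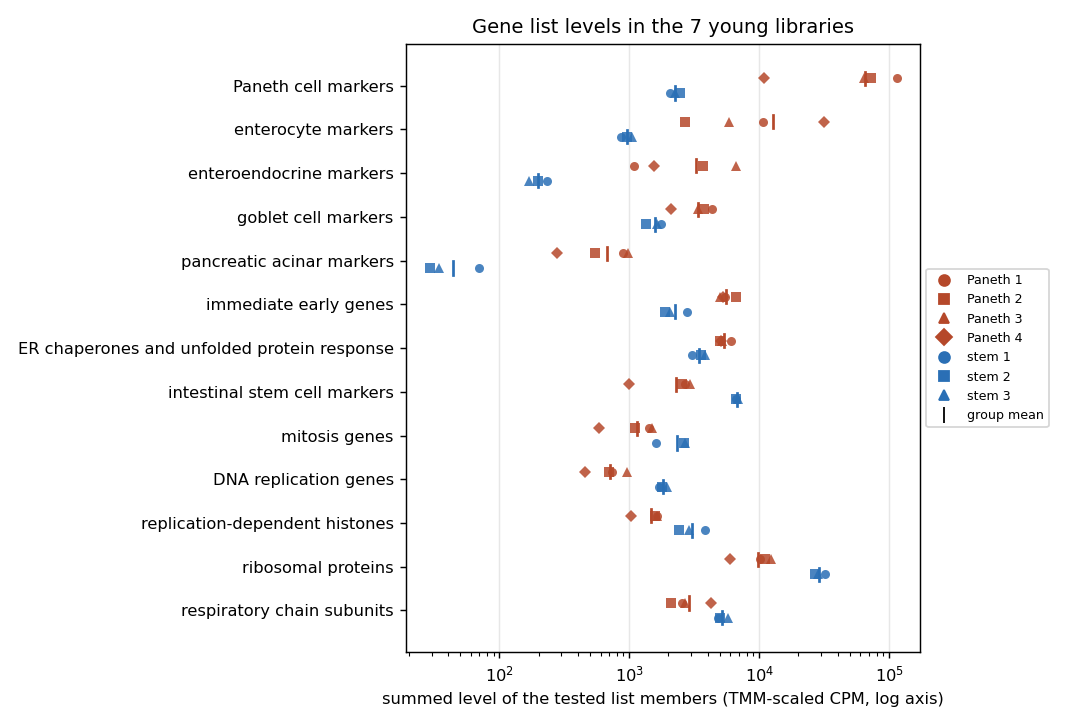
Summed level of the tested members of 13 gene lists in each library (horizontal log axis, TMM-scaled CPM), with Paneth libraries in red above stem libraries in blue and a bar at each group mean. Paneth 4 (diamond) has the lowest Paneth marker sum, 10836 CPM, and the highest enterocyte marker sum, 31615 CPM, of the 4 Paneth libraries.

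Promoters of a defensin and of Mmp7 are shown here because Paneth markers rose together. TCF/LEF factors, which carry the Wnt signal to DNA, are known to act on these genes. RefSeq's table (GRCm38.p6) gave a window from 250 bases before to 50 after the start for 16 of the 24 Paneth markers. Capitals mark TATAAA and the TCF/LEF core CTTTGA, each searched on both strands. The core reads TCAAAG where it lies on the opposite strand. The first is Defa21 at chr8:21025295-21025594 on the plus strand and the second Mmp7 at chr9:7691840-7692139 on the plus strand.
Defa21: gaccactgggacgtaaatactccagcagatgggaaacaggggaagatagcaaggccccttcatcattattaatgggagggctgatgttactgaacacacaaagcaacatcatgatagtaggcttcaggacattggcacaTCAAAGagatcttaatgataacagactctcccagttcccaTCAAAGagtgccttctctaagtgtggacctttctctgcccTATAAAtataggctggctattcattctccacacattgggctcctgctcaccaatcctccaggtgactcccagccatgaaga
Mmp7: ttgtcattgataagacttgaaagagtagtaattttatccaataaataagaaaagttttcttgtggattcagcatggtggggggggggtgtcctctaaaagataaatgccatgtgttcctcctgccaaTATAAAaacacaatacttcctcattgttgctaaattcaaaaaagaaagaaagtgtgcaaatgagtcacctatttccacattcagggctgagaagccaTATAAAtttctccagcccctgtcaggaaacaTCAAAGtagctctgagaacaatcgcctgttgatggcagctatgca
CTTTGA was found in 8 of the 16 Paneth marker windows (50%) and in 0 of 18 stem marker windows, against 16.2% of all 27025 promoters of the table. The core was also in 27.8% of enterocyte marker windows. TATAAA was found in 8 of the 16 as well, against 14.2% of all promoters. It was also in 44.4% of enterocyte marker windows, 58.9% of histone windows and 22.2% of stem marker windows. In Defa20, Defa21 and Defa22 both core matches began at the same distances from the start, -111 and -71 bases, and in Defa23 at -113 and -73. These copies are therefore not independent. The Mmp7 match lies after the start, and in the 250 bases before the start alone the core was in 7 of the 16 windows (43.8%). Over all genes higher in Paneth cells 13.7% of windows held CTTTGA, and over all genes lower 12.4%. Defa21 itself was at 1074, 911, 445 and 57.2 CPM in Paneth cells and 3.33, 10.9 and 10.8 CPM in stem cells (log2 change 6.21 ± 0.97, adjusted p = 0.00104).

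Over all genes, 3074 of 15736 were higher in Paneth cells and 2701 lower. Of these, 701 genes rose over 8-fold and 104 fell that far, and at over 32-fold the counts were 180 and 12. Of the called genes, 481 passed the filter on low counts only through the Paneth libraries and 346 only through the stem libraries. Of all genes tested, 584 entered only through the Paneth libraries and 1910 only through the stem libraries. Most genes that entered only through the Paneth libraries were thus called, while most that entered only through the stem libraries were not. Such entry favoured a difference towards the group of entry. The values of such genes are therefore a description, and the tallies by size carry no support. Among the genes named here the called ones of this kind are Ankrd2, Olfr1243, Nkx6-1, Cabp1, Sox2, Ube2ql1, Gsc, Ucn, Fzd10, Ror1, Dkk1, Nrg3, Bmp6, Trib3, Copz2, Cd3e and Emcn on the Paneth side. On the stem side they are Bmper, Trap1a, Hist1h2ap, Hist1h4n, Hist1h2bq, Gkn3, Nrg4, Mt2, Ldhb, Alox5, Rgs13 and Terc. Of the 5775 called genes, 5417 had Paneth and stem libraries that did not overlap, while 44.4% of all genes tested did not overlap. Scaling by library totals instead of TMM moved the median of all genes to -1.33 on the log2 scale, and turned the calls to 946 higher and 9071 lower, 9.44% higher against 53.23%. Directions are therefore relative to the median gene. Where the majority of a list turned under library totals, those counts stand beside its own. Of the single libraries, leaving out stem 2 or stem 3 lowered the counts most, to 1970 higher and 1646 lower without stem 2 and to 1963 and 1596 without stem 3.

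Of the 10 genes with the largest increases, all but Xpnpep2 and Ankrd63 entered the test only through the Paneth libraries. Ankrd2, a muscle ankyrin repeat protein, had 2237 reads in Paneth cells and 2 in stem cells, a scaled ratio of 5180 (95% exact interval 1432 to 42800, counting error only). Olfr1243, an olfactory receptor gene, had 1015 and 2 reads, a ratio of 2350 (649 to 19440). Nkx6-1 (chr5:101659184-101664711), a homeobox factor of pancreatic beta cells, was at 392, 706, 217 and 643 CPM in Paneth cells and 0.757, 0.239 and 0.0574 CPM in stem cells (log2 change 10.69 ± 0.88, adjusted p = 4.61e-05). Xpnpep2, a membrane aminopeptidase of the X chromosome, was at 3529, 8442, 2692 and 3643 CPM in Paneth cells and 8.401, 3.9 and 3.96 CPM in stem cells (log2 change 9.73 ± 0.77, adjusted p = 4.34e-05). Cabp1, a neuronal calcium-binding protein, and Sox2, a factor of pluripotent and neural stem cells, changed by 10.71 ± 0.58 and 9.58 ± 0.63. The other 4 were Ankrd63 (10.50), Ube2ql1 (10.03), Gsc (9.91) and Ucn (9.36). In all 10 the lowest Paneth library was far above the highest stem library, and none of the 10 is among the Paneth markers. Whether counting used the strand is not given, so reads of an overlapping or antisense transcript cannot be told apart from those of the named gene.

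The largest decreases had few reads in Paneth cells. Bmper, a secreted BMP-binding protein, was at 0.924, 0.984, 0.421 and 0.583 CPM in Paneth cells and 261, 82.1 and 22.4 CPM in stem cells (log2 change -7.39 ± 0.84, adjusted p = 0.000198). Znrf1, a ubiquitin ligase, was at 10.5, 18.7, 9.67 and 11.7 CPM in Paneth cells and 4246, 336 and 68.1 CPM in stem cells (log2 change -6.96 ± 1.18, adjusted p = 0.00152). In both genes stem 1 was the highest stem library, and with limma-voom neither passed. Cnnm1, Ankrd29 and Trim71 also had their highest value in stem 1 by a wide margin, 1770.3, 198 and 235 CPM, against at most 161, 17.4 and 30.2 CPM in the other stem libraries. The agouti gene a, a pigment signal, was at 15.6, 11.8, 8.2 and 12.5 CPM in Paneth cells and 391, 176 and 210.4 CPM in stem cells (log2 change -4.42 ± 0.36, adjusted p = 4.61e-05), and Trap1a, an X-linked tumour antigen, changed by -6.17 ± 0.58. Hist1h2ap, Hist1h4n and Hist1h2bq, histone genes with near-identical copies, changed by -6.54 ± 0.55, -6.03 ± 0.44 and -4.99 ± 0.46. In the agouti and histone genes every stem library lay far above every Paneth library.

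**Figure D2:**
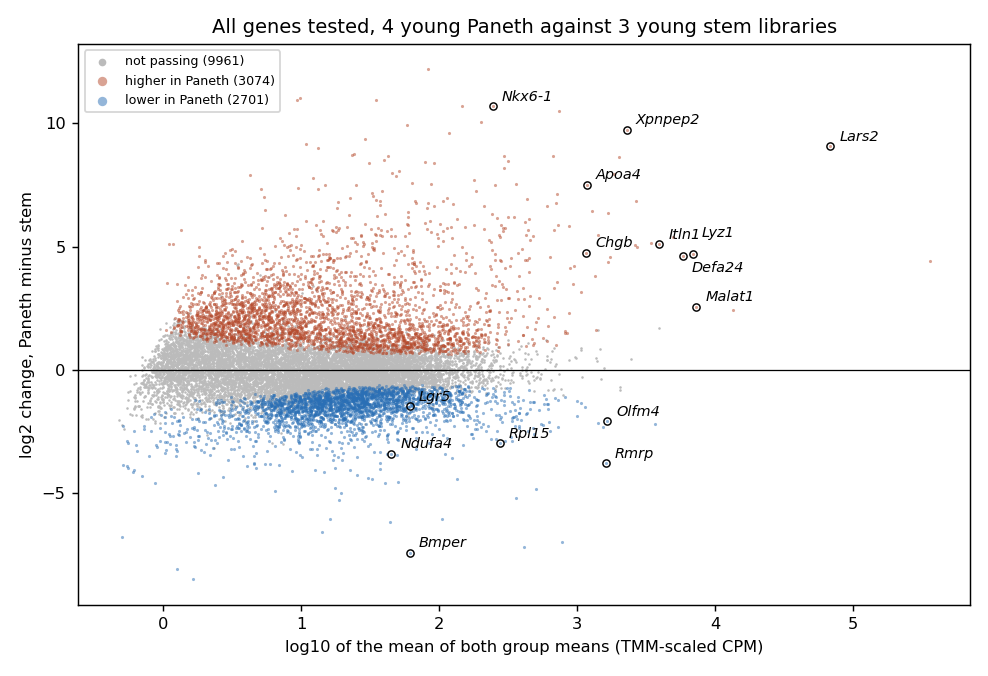
Log2 change (Paneth minus stem, vertical axis) against the log10 of the mean of both group means (TMM-scaled CPM, horizontal axis) for 15736 genes; red points are 3074 genes higher in Paneth cells, blue points 2701 lower, grey points did not pass, and circles name examples. Increases reach further from 0 than decreases, with 180 genes over 32-fold higher and 12 over 32-fold lower.

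Wnt ligands bind Frizzled receptors, and the crypt base depends on them. The list held the Wnt ligands with Porcn and Wls, which modify and carry them, 21 members in all. Of these, 4 of 12 tested members were higher and 1 lower, with a median log2 change of 0.54. Wnt3, the ligand usually ascribed to Paneth cells, was at 21.6, 18.7, 13.04 and 6.41 CPM in Paneth cells and 2.27, 2.84 and 2.56 CPM in stem cells (log2 change 2.54 ± 0.44, adjusted p = 0.00166). Wnt7b was at 108, 344, 74.4 and 223 CPM in Paneth cells and 9.38, 2.29 and 1.06 CPM in stem cells (log2 change 5.51 ± 0.86, adjusted p = 0.00101). Wnt10b was at 54.4, 75.2, 42.7 and 19.8 CPM in Paneth cells and 11.1, 3.28 and 4.56 CPM in stem cells (log2 change 2.94 ± 0.54, adjusted p = 0.00221) and Wnt4 at 22.5, 23.1, 29.9 and 26.5 CPM in Paneth cells and 8.63, 14.99 and 11.2 CPM in stem cells (log2 change 1.13 ± 0.29, adjusted p = 0.01095). For all 4 ligands every Paneth library exceeded every stem library, and of the 4 Wnt7b had the largest change, while that of Wnt4 turned to -0.19 with library totals. Wnt4 did not pass without stem 3. Wls, the carrier that takes Wnt proteins to the cell surface, went the other way, at 15.7, 15.2, 13.5 and 2.04 CPM in Paneth cells and 38.9, 44.96 and 47.03 CPM in stem cells (log2 change -1.91 ± 0.48, adjusted p = 0.0104). Wnt11 did not pass and its libraries overlapped (log2 change -0.05 ± 0.81, adjusted p = 0.971).

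Among Wnt receptors, 5 of 17 tested members were higher and 5 lower, with a median log2 change of -0.17, so as many rose as fell. Fzd3 was at 236, 501, 206 and 257 CPM in Paneth cells and 17.4, 7.94 and 8.15 CPM in stem cells (log2 change 4.75 ± 0.48, adjusted p = 0.000101), and Fzd10 and Ror1 changed by 5.02 ± 0.53 and 3.37 ± 0.51. Fzd4 (1.61 ± 0.48) and Fzd9 (2.35 ± 0.73) were the other 2 that rose. Besides Lgr5, the lower ones were Lgr4 (-0.86 ± 0.31), its R-spondin-binding relative, Fzd1 (-1.46 ± 0.36), Fzd6 (-1.38 ± 0.46) and Ryk (-1.20 ± 0.32). Fzd7, the Frizzled receptor described in crypt stem cells, did not pass (log2 change -0.72 ± 0.28, adjusted p = 0.0633), although its libraries did not overlap, and it passed without Paneth 2. Leaving out stem 2 or stem 3 ended the calls of Fzd4, Fzd6, Fzd9, Lgr4, Ryk and Rnf43, stem 1 those of Fzd4, Fzd6, Fzd9 and Lgr4, Paneth 1 those of Fzd6, Lgr4 and Rnf43, Paneth 2 that of Fzd9 and Paneth 3 that of Lgr4. With library totals the receptors stood at 3 higher and 12 lower. Of 16 Wnt inhibitors and feedback genes tested, 5 rose (3 higher and 6 lower with library totals): Dkk2, Dkk1, Tle2, Sfrp1 and Nkd1, by 3.10, 2.76, 2.71, 2.39 and 2.45. Rnf43, which removes Frizzled receptors, and Sfrp5 fell, with changes of -0.83 ± 0.25 and -1.08 ± 0.37. The median of the 16 was 0.74, and leaving out any single library except Paneth 3 ended the call of Sfrp5. Notum had too few reads for the test.

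EGF family ligands act on the receptors Egfr and Erbb2 to Erbb4. Of 9 ligands tested, 3 rose and 2 fell (0 higher and 4 lower with library totals), with a median log2 change of 0.07. Egf was at 22.02, 15.2, 14.5 and 5.83 CPM in Paneth cells and 6.28, 4.35 and 4.65 CPM in stem cells (log2 change 1.52 ± 0.43, adjusted p = 0.0179), with Paneth 4 inside the stem range, and it did not pass without Paneth 1, stem 2 or stem 3. Areg, amphiregulin, was at 40.03, 37.9, 43.1 and 251 CPM in Paneth cells and 27.5, 9.41 and 9.01 CPM in stem cells (log2 change 2.61 ± 0.76, adjusted p = 0.0203), far highest in Paneth 4, and did not pass without stem 2 or stem 3. Nrg3 changed by 2.07 ± 0.49. Nrg4 (-1.87 ± 0.53), which did not pass without Paneth 1, stem 2 or stem 3, and Btc (-1.65 ± 0.52), which did not pass without Paneth 1 or any single stem library, were lower, and Tgfa overlapped between the cell types (log2 change -0.38 ± 0.31, adjusted p = 0.368). On the receptor side, Egfr was at 31.1, 27.5, 24.4 and 14 CPM in Paneth cells and 72.1, 62.3 and 68.6 CPM in stem cells (log2 change -1.48 ± 0.29, adjusted p = 0.002995), and all 3 stem libraries lay above all Paneth libraries. Lrig1, a brake on these receptors that marks stem cells, changed by -1.43 ± 0.36. Errfi1, another brake, rose by 1.45, but did not pass without stem 2 or stem 3. Erbb3 did not pass (log2 change 0.12 ± 0.33, adjusted p = 0.808, but -1.22 with library totals). The other receptors and brakes tested did not pass, which left 1 higher and 2 lower of 10.

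Notch signals pass between touching cells, from Delta or Jagged ligands to Notch receptors, and keep stem cells from the secretory fate. Dll4 was at 28.02, 44.8, 23.97 and 18.1 CPM in Paneth cells and 17.9, 10.3 and 11.5 CPM in stem cells (log2 change 1.11 ± 0.36, adjusted p = 0.0322), so its lowest Paneth library was level with stem 1. Without Paneth 1, Paneth 2, stem 2 or stem 3 it did not pass, and with library totals its change turned to -0.27. Dll1 was at 58.4, 59.5, 55.1 and 73.2 CPM in Paneth cells and 46.5, 36.3 and 38.8 CPM in stem cells (log2 change 0.60 ± 0.23, adjusted p = 0.0641): the libraries did not overlap, but the gene did not pass, although it did without Paneth 4 and stem 1. The list of 7 ligands and factors of their uptake (0 higher and 4 lower with library totals) also held Neurl1a, which rose (1.06 ± 0.37) but had a change of -0.29 with library totals, and Mib1, which fell (-0.89 ± 0.24). Neurl1a did not pass when Paneth 2, Paneth 3 or any stem library was left out, and Mib1 did not pass without stem 3.

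Among Notch receptors and targets, 1 of 13 tested members was higher and 5 lower, with a median log2 change of -0.66. Notch1 was at 76.2, 104, 92.1 and 45.2 CPM in Paneth cells and 178, 125 and 170.0 CPM in stem cells (log2 change -0.99 ± 0.30, adjusted p = 0.0256), and it did not pass without Paneth 1, stem 1 or stem 3. Hes1, the main Notch target and a repressor of the secretory fate, was at 20.6, 4.43, 16.8 and 11.1 CPM in Paneth cells and 52.9, 66.3 and 63.4 CPM in stem cells (log2 change -2.15 ± 0.39, adjusted p = 0.00225). Nrarp, a feedback target, was at 8.93, 8.85, 9.88 and 2.92 CPM in Paneth cells and 24.5, 28.02 and 31.3 CPM in stem cells (log2 change -1.86 ± 0.37, adjusted p = 0.00346). Every stem library exceeded every Paneth library in all 3 genes. Notch2 (-1.19 ± 0.29) and Lfng (-1.22 ± 0.43), a Notch-modifying sugar transferase, were the other 2 that fell, and Heyl (1.45 ± 0.46) the only one that rose. Heyl did not pass without Paneth 3, stem 2 or stem 3, and Lfng passed only when all libraries were used or Paneth 2 was left out.

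BMP ligands oppose stem cell growth outside the crypt base. In this pathway, 4 of 22 tested members were higher and 3 lower, with a median log2 change of -0.02 (2 higher and 12 lower with library totals). Both are smaller shares than the 19.5% higher and 17.2% lower of all genes tested. Bmp6 was at 74.5, 158, 39.7 and 88.1 CPM in Paneth cells and 0.605, 0.308 and 0.2297 CPM in stem cells (log2 change 7.98 ± 0.63, adjusted p = 4.34e-05), and Bmp8a at 112, 396, 51.7 and 93.9 CPM in Paneth cells and 1.97, 1.68 and 0.861 CPM in stem cells (log2 change 6.78 ± 0.80, adjusted p = 0.000243). Bmp6 entered the test only through the Paneth libraries. In both ligands every Paneth library lay above every stem library. Bmp2 (2.14 ± 0.52) and the inhibitor Smad7 (1.28 ± 0.34, but -0.015 with library totals) also rose. The receptor Bmpr1a (-1.28 ± 0.35), the co-receptor Rgmb (-1.23 ± 0.31) and the ligand Bmp3 (-0.81 ± 0.29) fell. Smad7, Bmpr1a and Bmp3 did not pass without stem 2 or stem 3, and Bmp3 not without any single Paneth library either. The Id genes, which respond to BMP, had changes between -0.92 and 0.30 and did not pass, although Id3 passed without Paneth 4. Eph receptors and ephrins place Paneth cells at the crypt base. Of 16 tested, 4 rose and 2 fell, against 19.5% and 17.2% of all genes (1 higher and 9 lower with library totals), with a median of 0.09. With 1 library left out the counts ran from 3 to 5 higher and 2 to 4 lower, and 4 were lower without Paneth 2 or Paneth 4. Efnb2, an ephrin ligand, was at 38.95, 37.4, 28.8 and 71.1 CPM in Paneth cells and 8.17, 8.31 and 7.23 CPM in stem cells (log2 change 2.48 ± 0.35, adjusted p = 0.000582). Efna5, Ephb1 and Epha7 rose by 2.39, 1.88 and 1.79. Ephb1 did not pass without stem 1 or stem 3. Ephb4 and Efna4 fell, with changes of -1.54 ± 0.37 and -1.67 ± 0.34. Ephb3, the receptor known for Paneth cell placement, did not pass (log2 change -0.23 ± 0.62, adjusted p = 0.802), and Paneth 4 was far below the other libraries at 4.96 CPM.

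**Figure D3:**
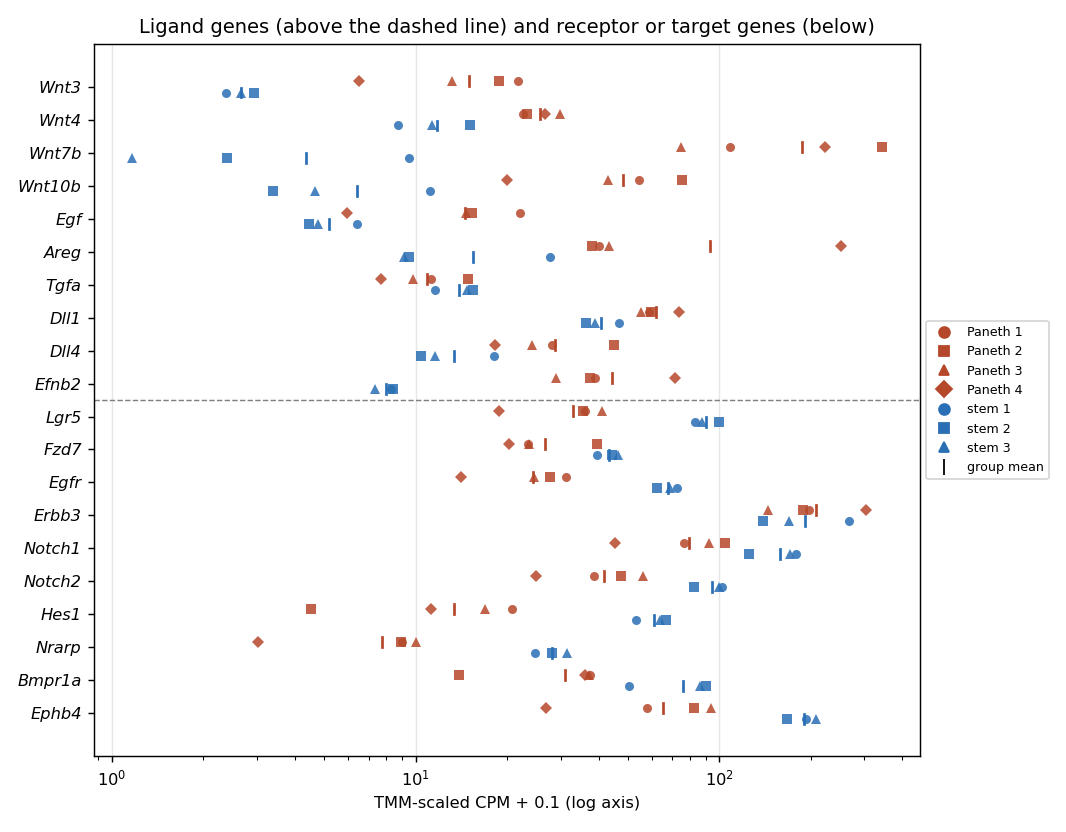
Level of 10 ligand genes (above the dashed line) and 10 receptor or target genes (below) in each library, as TMM-scaled CPM plus 0.1 on a log axis, Paneth libraries in red and stem libraries in blue with a bar at each group mean. Wnt3, Wnt4, Wnt7b and Wnt10b lie higher in all Paneth libraries, while Egfr, Notch1, Hes1 and Nrarp lie lower in all of them.

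Secretory cells are specified by Atoh1 and matured by factors such as Gfi1, Spdef, Xbp1 and Bhlha15. In the list of such factors, 11 of 19 tested members were higher and 0 lower, with a median log2 change of 1.52 (5 higher and 7 lower with library totals). Without stem 2 or stem 3 the higher ones numbered 7. Of the 8 that did not pass, 5 had a change below 0. Every Paneth library lay above every stem library in 8 of the 19 and below in 3, against 21.4% and 23% of all genes tested. Hhex, a homeobox factor, was at 47.1, 103, 33.2 and 27.4 CPM in Paneth cells and 1.82, 1.09 and 0.861 CPM in stem cells (log2 change 5.41 ± 0.57, adjusted p = 0.000123). Bhlha15 (Mist1), a factor of exocrine granule cells, was at 48.7, 49.2, 37.4 and 15.2 CPM in Paneth cells and 6.81, 6.88 and 6.95 CPM in stem cells (log2 change 2.45 ± 0.40, adjusted p = 0.00128). Spdef was at 20.5, 29.5, 23.8 and 8.16 CPM in Paneth cells and 5.37, 5.41 and 6.66 CPM in stem cells (log2 change 1.80 ± 0.41, adjusted p = 0.006502). In all 3 the Paneth libraries lay above the stem libraries. Klf4, Creb3l1 and Neurod1 rose by 2.46, 2.81 and 3.14, and Sox9, Creb3l4, Foxa1, Insm1 and Klf15 were the other members that rose. Core factors of the lineage did not pass, among them Atoh1 (log2 change 0.04 ± 0.52, adjusted p = 0.965, but -1.33 with library totals), Xbp1 (log2 change 0.40 ± 0.29, adjusted p = 0.296, but -0.94 with library totals) and Gfi1 (log2 change 1.16 ± 0.51, adjusted p = 0.0966), which passed without Paneth 4. Of 20 absorptive and progenitor factors, 6 rose and 2 fell (2 higher and 11 lower with library totals). Without Paneth 4, 4 were lower, and without stem 2, 4 were higher. Tcf7l2, the TCF factor of the crypt, was at 94.4, 118, 81.6 and 108 CPM in Paneth cells and 18.2, 15.6 and 12.1 CPM in stem cells (log2 change 2.71 ± 0.27, adjusted p = 0.0001004). Maf, a factor of mature enterocytes, changed by 3.58 ± 0.71 and was highest in Paneth 4 at 227 CPM. Cdx1 (-1.31 ± 0.25) and Cdx2 (-1.03 ± 0.22), the intestinal identity factors, were lower.

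The endoplasmic reticulum (ER) folds secreted proteins, and its load is read by the sensors Ern1, Ern2, Eif2ak3 and Atf6. Among ER chaperones and genes of the unfolded protein response, 11 of 33 tested members were higher and 1 lower, with a median log2 change of 0.60 (4 higher and 14 lower with library totals). The 11 were the sensors Ern1, Ern2 and Eif2ak3, the stress factors Atf4, Ddit3 and Trib3, the degradation factors Sel1l and Syvn1, and the oxidative folding enzymes P4hb, Pdia2 and Ero1lb. Ddit3 (Chop), a factor induced by ER stress, was at 130.1, 174, 92.7 and 80.2 CPM in Paneth cells and 12.8, 8.96 and 8.53 CPM in stem cells (log2 change 3.56 ± 0.36, adjusted p = 9.74e-05). Eif2ak3 (Perk) was at 145, 235, 107 and 111 CPM in Paneth cells and 45.4, 22.3 and 23.7 CPM in stem cells (log2 change 2.30 ± 0.38, adjusted p = 0.00144). Ern1, Ern2 and Trib3 changed by 1.97 ± 0.40, 2.45 ± 0.58 and 3.64 ± 0.63. Pdia2, a pancreatic disulfide isomerase, changed by 3.41 ± 0.55. Hspa5 (BiP), the main chaperone, was at 628, 484, 510.5 and 386 CPM in Paneth cells and 468, 544 and 593 CPM in stem cells (log2 change -0.09 ± 0.29, adjusted p = 0.8301), with overlapping libraries. The ER stress element was found in 10 of 29 promoter windows of the list (34.5%), against 0.13% of all promoters and 0.257% of the genes higher in Paneth cells. Of the 11 members that rose, only Syvn1 and Ero1lb held it. The other 8 windows with it were those of Hspa5, Hsp90b1, Pdia6, Calr, Canx, Dnajc3 and Creld2, which were not called, and of Derl3. Derl3 had too few reads for the test.

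Of 24 genes of ER translocation (0 higher and 17 lower with library totals), Sec62 (2.26 ± 0.32), Sec63 (1.05 ± 0.26, but -0.24 with library totals), Srp14 (0.78 ± 0.27, but -0.52 with library totals) and Srprb (1.22 ± 0.43, but -0.15 with library totals) rose, and Ssr2 (-1.49 ± 0.26) and Spcs1 (-1.98 ± 0.59) fell. The 4 that rose and the 2 that fell are smaller shares than the 19.5% and 17.2% of all genes tested. Srp14, Srprb and Spcs1 did not pass without Paneth 1, stem 2 or stem 3, Srp14 not without Paneth 2 or Paneth 3, and Srprb not without Paneth 4 or stem 1. Among genes of ER to Golgi transport, 7 of 30 tested members were higher and 2 lower, against 19.5% and 17.2% of all genes. Their median log2 change was 0.35 (3 higher and 17 lower with library totals). Without Paneth 1, stem 2 or stem 3, 4 were higher, and without Paneth 4 and stem 1 the counts were 9 higher and 6 lower. Sec24d, a cargo adaptor of COPII vesicles, was at 76.1, 58.03, 55.1 and 139.7 CPM in Paneth cells and 10.2, 10.02 and 9.704 CPM in stem cells (log2 change 3.04 ± 0.37, adjusted p = 0.000279), with no overlap. Among genes of regulated secretion, 8 of 24 tested members were higher and 0 lower, with a median log2 change of 0.63 (3 higher and 9 lower with library totals). Without stem 2 or stem 3, 5 were higher. Cplx2, a complexin that holds granules ready for fusion, was at 45.4, 88.5, 89.99 and 60.9 CPM in Paneth cells and 8.704, 7.25 and 7.21 CPM in stem cells (log2 change 3.20 ± 0.32, adjusted p = 0.000101). Syt7, a calcium sensor of granule release, was at 37.6, 30, 31.1 and 17.8 CPM in Paneth cells and 4.84, 3.52 and 3.62 CPM in stem cells (log2 change 2.88 ± 0.34, adjusted p = 0.000243). Sytl2 and Rab27a, which tether granules, changed by 4.02 ± 0.70 and 1.89 ± 0.42.

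Paneth granules are rich in zinc. In the zinc and metallothionein list, 5 of 17 tested members were higher and 4 lower, with a median log2 change of -0.28 (1 higher and 12 lower with library totals). Without Paneth 4 and stem 1 the counts were 3 higher and 9 lower. Of the Slc30 transporter family, Slc30a10 and Slc30a2 rose by 3.59 and 1.63, and Slc30a8 by 2.72. Slc30a2, which loads zinc into granules, was at 43.6, 28.5, 37 and 47.8 CPM in Paneth cells and 8.33, 13.6 and 16.02 CPM in stem cells (log2 change 1.63 ± 0.31, adjusted p = 0.00285). The metallothioneins Mt1 and Mt2, which bind zinc in the cytosol, were lower, with changes of -1.60 ± 0.43 and -2.88 ± 0.63. Mt1 did not pass without stem 2, nor Slc30a8 without Paneth 2, Paneth 4, stem 1 or stem 2. The other members called were Slc39a7 and Mtf1, higher, and Slc30a9 and Slc39a1, lower. Outside the defensins, 8 of 14 antimicrobial genes were higher and 1 lower. Pla2g2a, a secreted phospholipase that attacks bacterial membranes, was at 152, 111, 101 and 10.5 CPM in Paneth cells and 2.19, 2.19 and 2.18 CPM in stem cells (log2 change 5.41 ± 0.76, adjusted p = 0.000591). Reg3g, a lectin against Gram-positive bacteria, was at 68.7, 46.2, 56.6 and 67.9 CPM in Paneth cells and 27.9, 11.8 and 14.5 CPM in stem cells (log2 change 1.74 ± 0.34, adjusted p = 0.00313). Both had no overlap between cell types. Lyz2, the lysozyme of macrophages, passed (log2 change 2.40 ± 0.85, adjusted p = 0.0455) but overlapped, and leaving out any single library other than Paneth 4 ended the call. Dmbt1, a mucosal scavenger protein, was lower, at 436, 465, 748 and 437 CPM in Paneth cells and 1082, 2444 and 3457 CPM in stem cells (log2 change -2.16 ± 0.43, adjusted p = 0.00365). Among autophagy and bacterial sensing genes 3 of 21 rose (1 higher and 17 lower with library totals): Sqstm1 (2.76 ± 0.43), Tlr9 (1.44 ± 0.45) and Atg3 (0.81 ± 0.24, but -0.53 with library totals). Atg4b fell (-1.43 ± 0.26). These shares are below those of all genes. Tlr9 did not pass without Paneth 4 or any single stem library, and Atg3 not without stem 2 or stem 3.

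Mature Paneth cells are known as non-dividing cells, and genes of cell division were lower in their libraries. Among mitosis genes, 0 of 25 tested members were higher and 19 lower, with a median log2 change of -1.51. Cdc20, the activator of anaphase, was at 10.3, 17.2, 15.8 and 8.46 CPM in Paneth cells and 56.2, 56.6 and 69.8 CPM in stem cells (log2 change -2.25 ± 0.30, adjusted p = 0.000413). Cdk1, the kinase of mitotic entry, was at 19.7, 1.97, 6.52 and 3.21 CPM in Paneth cells and 27.9, 50.6 and 55.5 CPM in stem cells (log2 change -2.41 ± 0.59, adjusted p = 0.00944). Bub1 and Ccna2 changed by -2.71 ± 0.41 and -2.42 ± 0.40. In these 4 genes no Paneth library reached the stem range. Mki67, the proliferation antigen Ki-67, did not pass and overlapped, at 582, 418, 686 and 194 CPM in Paneth cells and 375, 694 and 737 CPM in stem cells (log2 change -0.36 ± 0.43, adjusted p = 0.545). Plk1, a mitotic kinase, did not pass either (log2 change 0.15 ± 0.42, adjusted p = 0.804, but -1.24 with library totals). Among DNA replication genes, 0 of 30 tested members were higher and 23 lower, with a median log2 change of -1.61. Pcna, the sliding clamp of the replication fork, was at 42.8, 36.9, 38.3 and 31.5 CPM in Paneth cells and 176, 137 and 142 CPM in stem cells (log2 change -2.02 ± 0.23, adjusted p = 0.000206). Mcm6, a subunit of the replicative helicase, was at 57.3, 42.3, 83.5 and 30.6 CPM in Paneth cells and 150.0, 182 and 201 CPM in stem cells (log2 change -1.73 ± 0.33, adjusted p = 0.00283). With both Paneth 4 and stem 1 left out, 0 higher and 21 lower of the mitosis genes and 0 higher and 25 lower of the replication genes were called.

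Promoters of 3 of these genes are shown because mitosis and replication genes fell together. The windows are again RefSeq's, 250 bases before to 50 after the start, on GRCm38.p6: Cdc20 at chr4:118437294-118437593, Cdk1 at chr10:69352863-69353162 and Mcm6 at chr1:128359656-128359955, all on the minus strand and printed in the direction of transcription. In Cdc20 and Cdk1 capitals mark CCAAT and TTTGAA (the cell cycle homology region), and in Mcm6 the E2F sites TTTGGCGC and TTTCGCGC, each searched on both strands. The first capital run of Mcm6 holds 2 overlapping matches.
Cdc20: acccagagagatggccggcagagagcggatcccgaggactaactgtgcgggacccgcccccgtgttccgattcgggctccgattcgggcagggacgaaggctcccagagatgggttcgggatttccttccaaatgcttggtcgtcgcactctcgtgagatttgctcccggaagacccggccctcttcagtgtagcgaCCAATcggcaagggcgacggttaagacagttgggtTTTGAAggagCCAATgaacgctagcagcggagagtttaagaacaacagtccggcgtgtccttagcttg
Cdk1: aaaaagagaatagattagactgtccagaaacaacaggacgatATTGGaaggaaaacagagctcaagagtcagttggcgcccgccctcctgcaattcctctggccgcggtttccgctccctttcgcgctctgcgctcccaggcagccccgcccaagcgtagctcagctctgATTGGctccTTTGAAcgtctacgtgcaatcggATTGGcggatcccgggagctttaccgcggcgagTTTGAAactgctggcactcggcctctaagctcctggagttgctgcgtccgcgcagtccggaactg
Mcm6: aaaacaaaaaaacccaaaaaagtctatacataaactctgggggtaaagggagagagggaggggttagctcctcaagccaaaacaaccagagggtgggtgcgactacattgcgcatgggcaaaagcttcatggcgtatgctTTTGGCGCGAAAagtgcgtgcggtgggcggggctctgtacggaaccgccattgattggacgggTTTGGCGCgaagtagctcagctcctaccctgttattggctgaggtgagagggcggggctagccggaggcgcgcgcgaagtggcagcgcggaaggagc
CCAAT was found in 19 of 21 mitosis windows (90.5%) against 37.9% of all promoters, and TTTGAA in 16 of 21 (76.2%) against 18.1%. In the 250 bases before the start alone, TTTGAA was found in 7 of the 21. CCAAT was also in 79.3% of ER chaperone windows, 83.9% of histone windows and 60.9% of replication windows. TTTGAA was also in 44.6% of histone windows. Over all genes lower in Paneth cells 42.2% of windows held CCAAT, and over all genes higher 36.8%. For TTTGAA these shares were 14.6% and 10.9%. TTTGGCGC was found in 5 of 23 replication windows (21.7%) against 0.537% of all promoters, and TTTCGCGC in 4 of 23 (17.4%) against 0.318%. TTTCGCGC was also in 14.3% of histone windows. Over all genes lower and all genes higher, TTTGGCGC was in 1.73% and 0.47% of windows, and TTTCGCGC in 1.5% and 0.257%. A match of letters is a description of the window and not a bound site.

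Cyclins and inhibitors of the cycle moved in both directions: 4 of 18 rose and 5 fell (3 higher and 12 lower with library totals). Without stem 2 or stem 3, 3 rose and 3 fell. Cdkn1a (p21), which stops the cycle, was at 40.6, 39.3, 27.8 and 45.2 CPM in Paneth cells and 6.74, 5.41 and 7.35 CPM in stem cells (log2 change 2.55 ± 0.29, adjusted p = 0.000194). Cdkn2b and Ccne2 rose by 3.31 and 3.91, and Btg2 by 1.04, but with -0.29 under library totals. The Paneth libraries exceeded all stem libraries in these genes. Ccnd1, the cyclin that starts the cycle, was at 26.5, 22.6, 36.2 and 12.8 CPM in Paneth cells and 57.2, 99.3 and 113 CPM in stem cells (log2 change -1.86 ± 0.36, adjusted p = 0.00292), and Ccnd2 changed by -1.71 ± 0.37. Ccne1 (-1.69 ± 0.49), Cdkn2c (-1.24 ± 0.34) and Rbl1 (-1.30 ± 0.29) were the other members that fell. Btg2, Ccne1 and Cdkn2c did not pass without stem 2 or stem 3.

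Replication-dependent histone genes, whose mRNAs lack a poly(A) tail, were mostly lower. Of 58 tested, 40 fell and 3 rose, with a median of -1.77, and without Paneth 4 and stem 1 the counts were 6 higher and 38 lower. Hist2h2aa2 was at 3.39, 3.93, 1.89 and 2.04 CPM in Paneth cells and 68.8, 40.4 and 64.1 CPM in stem cells (log2 change -4.39 ± 0.35, adjusted p = 4.34e-05). The 3 that rose were Hist2h3c1, Hist1h2af and Hist3h2a, by 2.92, 1.65 and 1.26, but with library totals the change of Hist3h2a was -0.10. Without stem 2 or stem 3 Hist3h2a did not pass. Copies of these genes are nearly identical, so a split of reads among them is uncertain. In a list of 9 tested noncoding RNAs that lack the usual poly(A) tail, the RNase component Rmrp was at 218, 236, 319 and 102 CPM in Paneth cells and 4961, 2223 and 1842 CPM in stem cells (log2 change -3.78 ± 0.51, adjusted p = 0.0004504). Terc (-3.84 ± 0.81) and Snord17 (-2.43 ± 0.59) were lower too, and Snord17 did not pass without stem 1. Malat1 and Neat1, nuclear RNAs, were higher: Malat1 was at 12424, 16142, 10418 and 10953 CPM in Paneth cells and 1805, 2404 and 2099 CPM in stem cells (log2 change 2.57 ± 0.46, adjusted p = 0.00201). Rmrp and Malat1 thus moved in opposite directions without overlap. The part of the library kits in these values was not tested, since kit and cell type cannot be told apart.

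Genes of protein synthesis were lower. Among ribosomal proteins, 0 of 48 tested members were higher and 42 lower, with a median log2 change of -1.78. Their summed level was 10039, 11053, 12306 and 5964 CPM in Paneth cells and 31797, 26703 and 28509 CPM in stem cells. Rpl15 was at 72.7, 52.6, 79.3 and 44.3 CPM in Paneth cells and 495, 461 and 502 CPM in stem cells (log2 change -2.96 ± 0.29, adjusted p = 9.27e-05), and Rps25 at 66.8, 68.9, 65.2 and 41.1 CPM in Paneth cells and 428, 429.8 and 390.4 CPM in stem cells (log2 change -2.78 ± 0.27, adjusted p = 9.69e-05). The stem libraries differed little among themselves, and no Paneth library came near them. Rpl26, Rpl28, Rpl37, Rplp2, Rps23 and Rpsa were the 6 that did not pass. Processed copies of these genes exist in the genome, so reads may be split. Among genes of ribosome biogenesis, 2 of 30 tested members were higher and 18 lower, with a median log2 change of -0.96. Polr1b, a subunit of the polymerase that makes ribosomal RNA, was at 12.9, 19.7, 10.1 and 7.58 CPM in Paneth cells and 72.4, 83.5 and 102 CPM in stem cells (log2 change -2.80 ± 0.33, adjusted p = 0.000215). The 2 that rose were Ncl, nucleolin, by 1.01, and Nop14, by 0.93, with changes of -0.30 and -0.45 under library totals. Both calls ended without stem 2 or stem 3, and that of Ncl also without any single library other than Paneth 4.

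Among respiratory chain subunits, 1 of 41 tested members was higher and 22 lower, with a median log2 change of -0.95. The lower ones numbered 14 without stem 2 and 12 without stem 3, and without Paneth 4 and stem 1 there were 31. Ndufa4, a small subunit of the chain, was at 9.55, 7.87, 7.57 and 6.12 CPM in Paneth cells and 71.4, 95.3 and 78.7 CPM in stem cells (log2 change -3.38 ± 0.26, adjusted p = 4.34e-05). Uqcrq was the subunit that rose (1.08 ± 0.30, but -0.20 with library totals), and it did not pass without any single stem library. Among genes of the tricarboxylic acid cycle, 1 of 24 tested members was higher and 12 lower, with a median log2 change of -0.81, and 7 were lower without stem 3. Their summed level was 1999, 1284, 1899.9 and 3986 CPM in Paneth cells and 2285, 2648 and 3029.5 CPM in stem cells, so Paneth 4 lay above every stem library. Idh3g was at 22.5, 14.3, 18.9 and 17.5 CPM in Paneth cells and 58.3, 66.8 and 81.5 CPM in stem cells (log2 change -1.90 ± 0.25, adjusted p = 0.000442), and Mdh2 rose by 1.53, with its highest value, 702 CPM, in Paneth 4, and did not pass without any single stem library. Among genes of fatty acid oxidation, 2 of 21 tested members were higher and 9 lower, with a median log2 change of -0.52, and without Paneth 4 and stem 1 the counts were 2 higher and 14 lower. Cpt1a, which brings fatty acids into the mitochondrion, was at 64.7, 66.4, 60.3 and 83.1 CPM in Paneth cells and 157, 164 and 208 CPM in stem cells (log2 change -1.36 ± 0.24, adjusted p = 0.00179). All stem libraries were above all Paneth libraries in Ndufa4, Idh3g and Cpt1a. Among glycolysis and lactate genes, 4 of 26 tested members were higher and 6 lower, against 19.5% and 17.2% of all genes. Their median log2 change was -0.11 (1 higher and 16 lower with library totals). Pfkfb3, which drives glycolysis, was at 37.1, 22.6, 23.3 and 119.6 CPM in Paneth cells and 9.61, 7.36 and 6.92 CPM in stem cells (log2 change 2.67 ± 0.58, adjusted p = 0.00528). The lactate carrier Slc16a1 changed by -1.98 ± 0.36. Ldhb had 0 reads in the Paneth libraries and 181 in the stem libraries, at least 13-fold lower with a floor of 3 reads over the group. With 1 library left out the glycolysis counts ran from 1 to 6 higher and 3 to 9 lower.

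Markers of other cell types were counted too. Among enterocyte markers, 20 of 22 tested members were higher and 0 lower, with a median log2 change of 4.25. Their sum was 10733, 2694, 5828 and 31615 CPM in Paneth cells and 866, 954 and 1055 CPM in stem cells. Paneth 4 had the highest sum of the 4, and Paneth 2 the lowest. Apoa4, an apolipoprotein of absorptive cells, was at 2118, 357, 773 and 6084 CPM in Paneth cells and 14.8, 10.5 and 13.5 CPM in stem cells (log2 change 7.5 ± 1.06, adjusted p = 0.000606). Lct, lactase, changed by 6.19 ± 0.90, and Mep1a and Dgat1 did not pass. Without Paneth 4 and stem 1, 17 higher and 0 lower were called. With the enterocyte marker level as a covariate, an alternative chosen after seeing the data, 3426 genes were higher and 3463 lower over all genes. The level was centred within each cell type. That fit therefore could not adjust for the difference in enterocyte RNA between Paneth and stem libraries. The part of enterocyte RNA in the other results was not tested beyond these values.

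Among enteroendocrine markers, 13 of 18 tested members were higher and 0 lower, with a median log2 change of 2.71. Their sum was 1079, 3709.6, 6668 and 1550.1 CPM in Paneth cells and 232, 196 and 167 CPM in stem cells, so Paneth 3 was highest. Chgb, a chromogranin of hormone granules, was at 425, 2560.3, 4846 and 1088 CPM in Paneth cells and 99.6, 83.4 and 64.9 CPM in stem cells (log2 change 4.75 ± 0.80, adjusted p = 0.001499). The hormones Ghrl and Gcg changed by 3.81 ± 0.37 and 3.86 ± 0.58. Neurod1 and Reg4 stand in this list as well as among the secretory factors and the antimicrobial genes. Goblet cell markers were called in both directions (3 higher and 5 lower with library totals): Muc2 (3.31 ± 0.61), Spink4 (3.43 ± 0.58), Ccl6 (4.08 ± 0.69), Klk1 (1.90 ± 0.41) and Muc13 (1.18 ± 0.36, but -0.13 with library totals) rose, Fcgbp fell (-1.01 ± 0.32), and Tff3 and Clca1 were among the 7 of 13 that did not pass. Muc2, the gel-forming mucin, was at 1761, 1805, 1102 and 294 CPM in Paneth cells and 178, 89.5 and 106 CPM in stem cells (log2 change 3.31 ± 0.61, adjusted p = 0.00245), with no overlap and Paneth 4 lowest. Without Paneth 1, stem 1 or stem 3 neither Muc13 nor Fcgbp passed, and without stem 2 Muc13 did not.

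Of 11 tuft cell markers 0 were higher and 3 lower, Trpm5, Alox5 and Rgs13, with changes of -1.19 ± 0.37, -2.37 ± 0.76 and -2.13 ± 0.65. Of the 11, 8 passed the filter on low counts only through the stem libraries, so the count is no support for a difference. The lower count was 0 without Paneth 1 or stem 1, 1 without stem 3 and 5 without Paneth 4. Of 13 leukocyte markers 4 rose (2 higher and 4 lower with library totals): Cd3d (2.95 ± 0.36), Cd3e (2.77 ± 0.61), Itgam (1.53 ± 0.35) and Cx3cr1 (1.87 ± 0.43). The summed level of the 13 was 83.6, 79.2, 74.6 and 86.6 CPM in Paneth cells and 40.6, 42.9 and 29.4 CPM in stem cells. The list held 24 members, and the others did not pass the filter on low counts. Among these, the macrophage gene C1qa had 0, 0, 2 and 1 unscaled reads in Paneth cells and 75, 272 and 3 in stem cells. C1qb had 2, 0, 0 and 0 reads in Paneth cells and 58, 210 and 4 in stem cells. Cd3g had few reads in both, 10, 7, 2 and 1 against 12, 8 and 8. Ptprc, the leukocyte common antigen, did not pass (log2 change 1.22 ± 0.48, adjusted p = 0.0692), though it did without Paneth 3. Pancreatic acinar markers were at 899, 540.5, 983 and 279 CPM in Paneth cells and 69.6, 29.05 and 34.1 CPM in stem cells, and 6 of 14 rose. Clps and Pnliprp2, which both lists of acinar and Paneth markers hold, changed by 5.02 ± 0.67 and 3.93 ± 0.48. Cela2a, a pancreatic elastase, was uneven among the Paneth libraries, at 0.308, 0, 38.7 and 15.2 CPM in Paneth cells and 1.21, 0.0684 and 0.0287 CPM in stem cells (log2 change 5.34 ± 1.65, adjusted p = 0.0269). It did not pass without stem 2 or stem 3. The acinar count was 3 without Paneth 3, Paneth 4, stem 2 or stem 3, 9 without Paneth 1 and 11 without stem 1. Of 15 stromal, endothelial and muscle markers (1 higher and 5 lower with library totals), Emcn (5.6 ± 0.75) and Col1a2 (1.83 ± 0.40) rose and Col3a1 fell (-3.19 ± 0.85). Col3a1 did not pass without Paneth 4, stem 1 or stem 2. Des, a muscle gene of the list that did not pass the filter, had 5, 0, 3 and 0 unscaled reads in Paneth cells. In stem cells it had 103, 113 and 12. Of 3 erythrocyte and platelet markers, Slc4a1 rose (1.43 ± 0.48), and leaving out any single stem library ended the call.

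**Figure D4:**
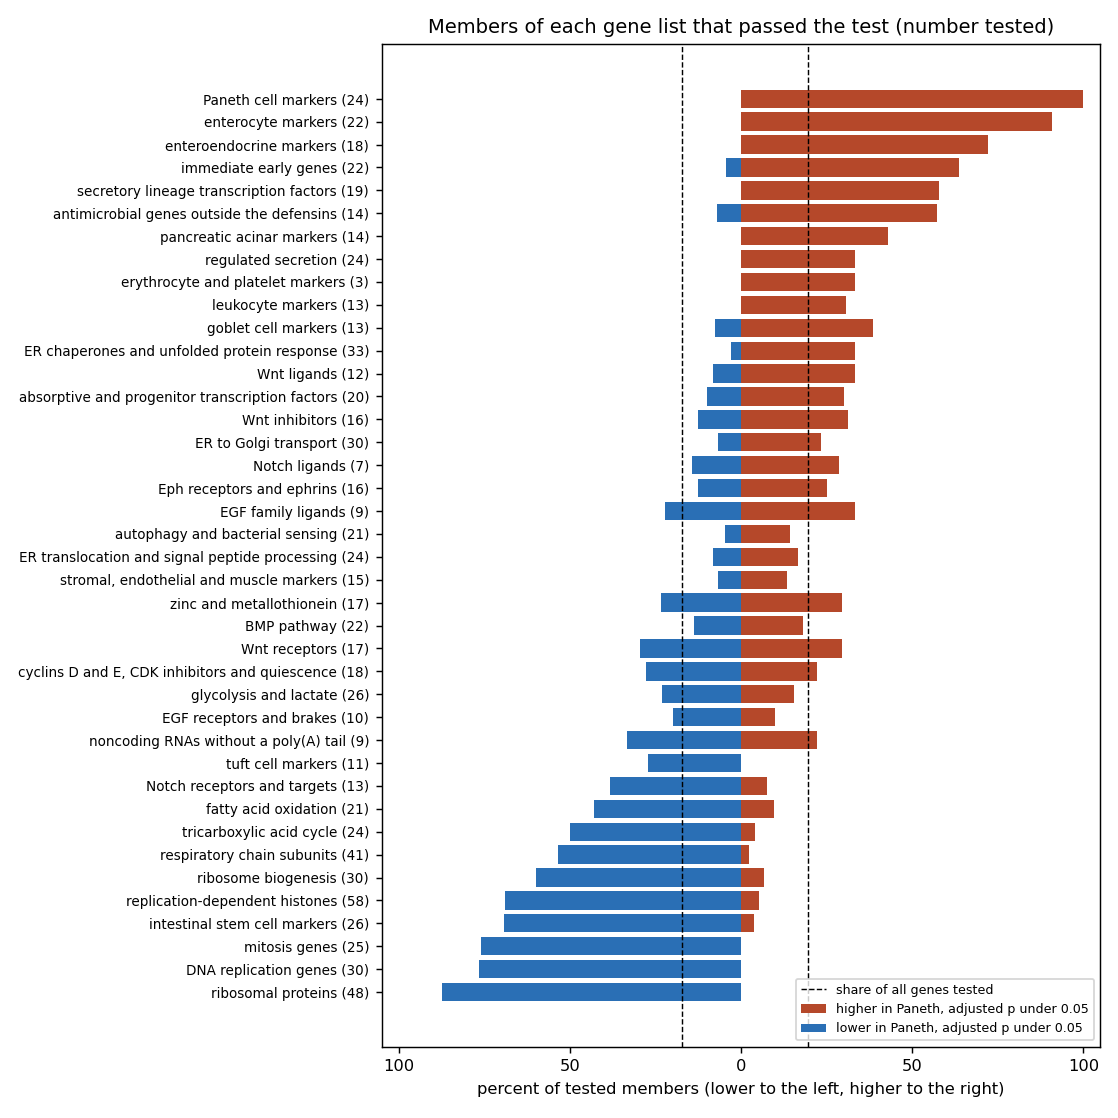
Percent of the tested members of each of 40 gene lists that were higher in Paneth cells (red, right) or lower (blue, left) at an adjusted p under 0.05, with the number tested in brackets; dashed lines mark the shares of all genes tested, 19.5% higher and 17.2% lower. Paneth markers lie at one end with 24 of 24 higher and ribosomal proteins at the other with 42 of 48 lower. With library totals 9.44% of the calls over all genes are higher, and the text gives the lists whose majority turns.

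Immediate early genes are known to respond to stimuli within minutes. Of 22 tested, 14 rose and 1 fell (3 higher and 6 lower with library totals), with a median of 1.36, and 9 rose without stem 2. Egr1 was at 396, 796, 491 and 485 CPM in Paneth cells and 154, 112 and 110.5 CPM in stem cells (log2 change 2.11 ± 0.34, adjusted p = 0.00119). Hspa1a and Hspa1b, heat shock genes that are nearly identical and whose reads may be split, changed by 3.63 ± 0.44 and 3.13 ± 0.33. Fosb changed by 2.12 ± 0.30. Egr1 did not overlap between the cell types. Fos did not pass (log2 change -0.22 ± 0.28, adjusted p = 0.5701), and Ier3 was the member that fell (-1.38 ± 0.41), a call that ended without any single stem library. Their summed level was 5444, 6652, 5016 and 5239 CPM in Paneth cells and 2760.4, 1888 and 2061 CPM in stem cells.

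Calls differed by the length and base composition of the transcript. For 92.43% of the tested genes a transcript was matched. With genes ranked by transcript length and split into 5 equal groups, the group of the shortest transcripts had 151 to 2051 bases. In it 15.3% were higher and 27.1% lower, and the median log2 change was -0.393. Among the longest 26.9% were higher and 12.3% lower, with a median of 0.244. By GC content, the lowest of 5 groups had 14.6% higher and 23.0% lower, and the highest 26.6% and 11.1%. In both rankings the median rose from each group to the next. Ribosomal protein and respiratory chain genes are short, with median lengths of 1124 and 1232 bases, and the part of length and GC in their lower levels was not tested. Other lists of short transcripts went both ways. Replication-dependent histones, with a median of 532 bases, were mostly lower, and Paneth markers, with a median of 559.5 bases, were higher.

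**Figure D5:**
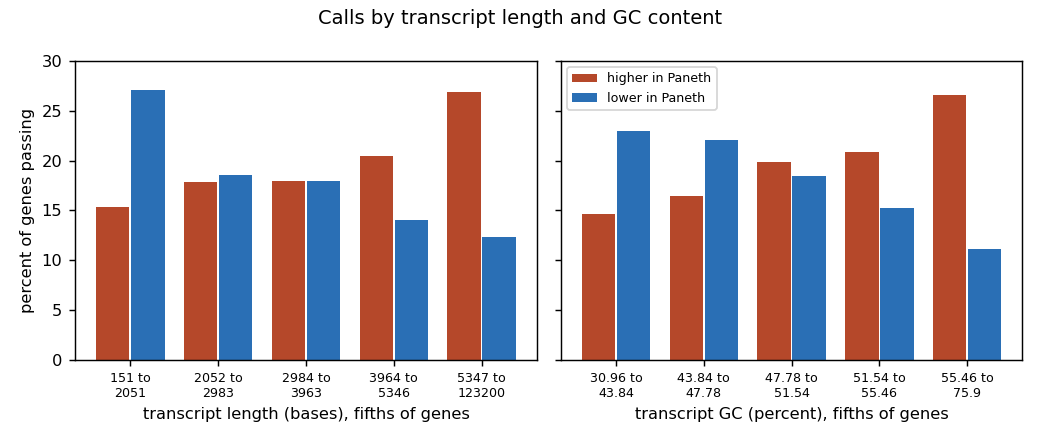
Percent of genes higher (red) or lower (blue) in Paneth cells, vertical axis, in 5 equal groups of genes by transcript length in bases (left) and by GC content in percent (right). The share of higher genes grows from 15.3% to 26.9% with length and from 14.6% to 26.6% with GC content.

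The same contrast in mice of 20 to 22 months uses other libraries, 3 of each cell type, with the same confounding of kit and cell type. There 3653 of 16846 genes were higher (21.7%) and 3837 lower (22.8%), 44.5% in all, and in 56.7% the libraries of the cell types did not overlap. Of the 3046 genes higher in young mice and tested at both ages, 2369 were also called higher in aged mice, 77.77% of the young calls and 68.83% of the aged. Of 2694 lower ones 2174 were called again, 80.7% and 57.12%. With edgeR the difference of the contrast between ages passed in 0 of 16960 genes, with 1492 at an unadjusted p under 0.05 and a smallest adjusted p of 0.0514. Among the members described here, Lyz1 passed in aged mice (3.04 ± 0.78, adjusted p = 0.0135), as did Hhex (1.14 ± 0.39, adjusted p = 0.0404), while Wnt3 did not (1.52 ± 0.67, adjusted p = 0.09497). Mptx1, a mucosal pentraxin of Paneth cells, was higher in young mice (log2 change 4.94 ± 0.57, adjusted p = 0.000216) and did not pass in aged mice (-1.21 ± 0.89, adjusted p = 0.2999). The related Mptx2 was higher in young mice (log2 change 4.12 ± 0.54, adjusted p = 0.000421) and lower in aged mice (-2.02 ± 0.58, adjusted p = 0.0212), and it had the smallest adjusted p for the difference between ages. In aged mice 17 of 24 Paneth markers were higher and 1, Mptx2, lower, while 19 of 26 stem cell markers were lower and 25 of 25 mitosis genes were lower. The difference of the contrast between ages passed for none of these genes.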

How the data were processed

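RNA-seq was measured in 13 libraries, 7 of them used for the main comparison. Each library's table has 36186 rows. The authors deposited the values under the name FPKM, and what the files hold was read as estimated counts: of the values under 20 in the table of Paneth 1, 71.37% are whole to within 0.001, and 94.52% lie on whole sixtieths to within 0.01. The submitters' processing notes name mm10 and DESeq without a role, and the aligner and counter were not given in the sources used. Rows were summed by Entrez ID to 35791 genes and rounded.

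Genes were kept by filterByExpr (a CPM of at least 1.191 in 3 libraries) and tested with edgeR 4.0.16 (R 4.3.3; quasi-likelihood, TMM, robust), at an adjusted p under 0.05. DESeq2 1.42.0, limma 3.58.1 and the scalings, filters and left-out libraries of the closing section were alternatives. The scripts were tested on simulated data. Standard errors are the log2 change over the square root of the F value. The biological coefficient of variation was 0.36, and no 2 libraries of a group were duplicates (chi-square per gene 19.73 to 108.65).

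The comparison, its 40 gene lists and the motifs were chosen with earlier results of these data known. The naming rule took the markers, the 10 largest changes each way (no overlap, at least 20 CPM, no predicted genes), up to 4 members of each list by p, and a fixed set. Other list members were named after their values were seen, and some members are not reported here. Symbols, positions and promoters are RefSeq's (GRCm38.p6).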

Additional observations from a re-analysis of the deposited data

Results flagged for a closer look

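In the 4 Paneth libraries, 22 values lay so far from the other 3 that the gap exceeded Dixon's 95% critical value. Chance marks about 1 in 20 groups, and 247 genes and 40 list sums were looked at.

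Paneth 4 gave 12 of the 22. It was low in Wls (2.04 CPM against 13.5 to 15.7 CPM), Nrarp (2.92 against 8.85 to 9.88 CPM), Bub1 (1.75 against 6.39 to 6.73 CPM) and Rps25 (41.1 against 65.2 to 68.9 CPM). It was high in Areg (251 against 37.9 to 43.1 CPM), Pfkfb3 (119.6 against 22.6 to 37.1 CPM), Ndufb5 (23.3 against 7.87 to 10.01 CPM), Ptprc (15.8 against 4.63 to 6.005 CPM) and Mdh2 (702 against 179.5 to 251 CPM). Its sum over EGF ligands was 411 CPM against 118 to 134 CPM, and over glycolysis genes 3279 CPM against 1113 to 1458 CPM. Its sum over replication-dependent histones was 1038 CPM against 1578 to 1630 CPM.

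Paneth 2 was high in Xpnpep2 (8442 against 2692 to 3643 CPM), Wnt11 (2.95 against 0.292 to 0.616 CPM) and the sum of Wnt receptors (1058 against 749 to 786 CPM). It was low in Bmpr1a (13.8 against 35.9 to 37.3 CPM) and Ier3 (0.984 against 3.79 to 4.003 CPM). Paneth 3 was high in Mt1 (24.2 against 6.89 to 9.08 CPM), Dmbt1 (748 against 436 to 465 CPM) and Sfrp5 (24.0 against 8.46 to 9.85 CPM), and low in Polr1c (11.1 against 12.2 to 12.3 CPM). Paneth 1 was high in the sum of ER chaperones, 6018 CPM against 5014 to 5132 CPM.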

How the results depend on the processing

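Scaling by library totals gave 946 genes higher and 9071 lower, and turned the sign of 19 genes that passed with either scaling, of 247 genes followed: Dll4 -0.27, Neurl1a -0.29, Sec63 -0.24, Mcfd2 -0.039, Atg3 -0.53, Erbb3 -1.22, Atoh1 -1.33, Xbp1 -0.94, Btg2 -0.29, Muc13 -0.13, Smad7 -0.015, Ncl -0.30, Plk1 -1.24, Srp14 -0.52, Srprb -0.15, Uqcrq -0.20, Wnt4 -0.19, Nop14 -0.45 and Hist3h2a -0.10. A test against a fold of 2 gave 1411 higher and 605 lower, 69.99% higher. With 1 young library left out the counts ran from 1963 to 3139 higher and from 1596 to 2883 lower, the lowest without stem 3. The deviations of same-numbered libraries correlated at -0.12, -0.069 and 0.063, and those of unlike numbers at -0.098 to 0.105. Values so few and of like size cannot decide whether the numbers pair the libraries. The fit with the replicate block gave 2647 higher and 2340 lower. The other alternatives, 11 planned and 2 chosen after seeing the data, kept both counts within 1.5 times. They included DESeq2 (3503 and 3111), limma-voom (3992 and 3939), no count filter (2752 and 2981) and leaving out Paneth 4 and stem 1 together (3239 and 2922). In aged mice 1 left-out library gave 2642 to 4496 higher and 2668 to 5054 lower. The causes were not tested. Outside the 3 largest loci the Paneth libraries held fewer reads than the stem libraries, which limits low genes.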

Other observations

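Other Y-linked genes followed Ddx3y in stem 1. Kdm5d, a histone demethylase gene, was at 50.1 CPM there and at 2.95 to 8.2 CPM in the other 6 young libraries. Uty was at 29.7 CPM there and at 0.292 to 2.31 CPM in the others.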
